A study of Populus trichocarpa
Populus deltoides with 74 samples.

Results

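PTTPIN1, PTTPIN2 and PTTPIN3 are the genes with a PIN auxin efflux carrier name on a poplar oligonucleotide array, 3 of its 217 measured oligos, and they were taken by name alone. Their transcript levels were followed through buds and shoot tips of wild-type poplar trees of different age, season and shoot position, and the labels give the organism as Populus trichocarpa together with Populus deltoides. Lateral vegetative buds came from trees aged 1, 2, 5 and 6 years with no stated sex, and from male trees of age 6. Floral buds came from trees of age 6, with 1 group labelled male and 1 without a stated sex. Shoot tips were labelled female and were sampled in May and in June at all 4 ages, and shoot tips labelled basal were sampled in both months at ages 5 and 6. Shoot tips without that word are called upper tips below. Each of the 19 groups had 2 RNA isolations, a and b, except the June upper tips of age 5, which had only b, and each isolation was hybridised with Cy5 to 2 wells of a 96-well array. Nothing states that the isolations of a group came from separate trees, so the p-values measure the spread between isolations, which may be technical. All tips were labelled female and no bud was, so organ and tree label cannot be told apart between buds and tips.

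PIN proteins sit in the plasma membrane and export the plant hormone auxin from the cell. Their placement on one side of the cell gives auxin flow a direction, and carrier activity along a file of cells builds the polar stream from the shoot tip toward the base. The transcripts come from bulk tissue of many cell types, so fewer cells of a type and less RNA per cell cannot be told apart.

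Levels are quantile-normalised log2 intensities averaged over the wells of an isolation, where 1 unit is a doubling of signal. A level is read only against the same oligo in other samples. The residual SD between isolations of a group was 0.40 for PTTPIN1, 0.65 for PTTPIN2 and 0.49 for PTTPIN3, and 95.4% of the oligos varied less than PTTPIN2. PTTPIN2 lay among the dimmest 10% of the array's intensities on 22 of 45 tip arrays and on 0 of 28 bud arrays, so its low tip levels are the least precise. PTTPIN1 lay there on 8 of 46 tip arrays and 1 of 28 bud arrays, and PTTPIN3 on 0 of 46 tip arrays and 3 of 28 bud arrays. PTTPIN1 never exceeded the array median on any of 74 arrays, whereas PTTPIN3 did on 48. Of 6 floral identity genes on the array, 5 were higher in every floral bud isolation than in every other isolation. The exception was PTD, whose lowest floral bud level was 7.50 and whose highest upper tip level was 7.61. The share of all oligos that separated so was not counted, here or wherever isolations are said not to overlap below.

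The wells of an isolation did not always give the same level. Their absolute difference had a median of 0.77 for PTTPIN1, 0.37 for PTTPIN2 and 0.18 for PTTPIN3. The isolations were clustered by their well differences over all oligos into 5 sets, a number that was set and not estimated, called hybridisation sets here. The labels name no plate, and these sets come from the values themselves. The carriers' own well differences were among those values, so differences between sets are partly built in. For PTTPIN1, well 1 was below well 2 in all 10 isolations of set 2, by 1.02 on average, and above it by 0.81 on average in set 5. Set 2 holds most vegetative buds and 3 of the June basal isolations, and set 5 holds all May upper tips. PTTPIN3 differed by 2.22 and 1.89 between the wells of the June upper tips of age 1, the only members of set 4.

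**Figure D1:**
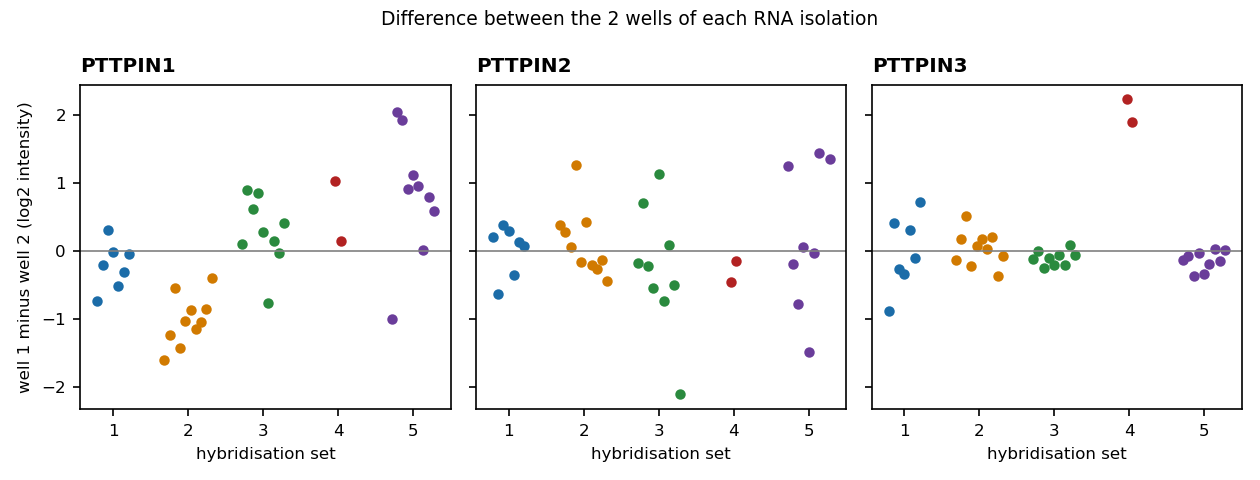
Each point is 1 RNA isolation, and the vertical axis gives well 1 minus well 2 in log2 intensity for each of 5 hybridisation sets. The sets were themselves formed from well differences over all oligos. The mean of PTTPIN1 ran from -1.02 in set 2 to 0.81 in set 5, while PTTPIN3 stayed within 0.89 of 0 outside set 4.

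Samples that stood apart touch several values below. Isolation a of the vegetative buds of age 1 correlated at 0.870 to 0.929 over all oligos with the vegetative bud isolations of other groups, against 0.921 to 0.974 for isolation b, and at 0.941 with isolation b itself. The May upper tips of age 6 correlated at 0.976 with the May upper tips of age 1, at 0.967 with the May basal tips of age 6 and at 0.918 with the May upper tips of age 5. Values without these samples are given beside the results they move most.

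PTTPIN3 was the carrier whose level depended most on the organ. It was lowest in floral buds, at 5.37 and 5.49 in trees of unstated sex and 5.20 and 5.72 in male trees. Vegetative buds followed, with a lowest level of 6.57, a median of 6.80 and a highest of 9.23 over 10 isolations. Upper tips ranged from 8.63 to 11.99 with a median of 10.02 over 15 isolations. Basal tips ranged from 11.34 to 12.20 with a median of 11.67 over 8 isolations. No floral isolation overlapped a vegetative bud, and no basal tip fell below 11.34, a level that 2 upper isolations, both of May age 6, exceeded. Group means spanned 6.60 units, and the moderated F test of limma over all 19 groups gave F = 48.6 (adjusted p = 5.76e-12). That test called 86.6% of all oligos.

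In the order of its 19 group means, PTTPIN3 had 4 gaps between neighbours larger than its residual SD. They lay between the May and June upper tips of age 1 (0.90), between the June upper tips of age 6 and the vegetative buds of age 1 (1.21), between the vegetative buds of ages 1 and 5 (1.08) and between male vegetative and male floral buds (1.14). Isolations overlapped across the gaps on either side of the vegetative buds of age 1, which stood at 9.23 and 6.75. The gap between May and June tips of age 1 depended on the well. There the June tips read 11.29 and 11.29 in well 1 but 9.07 and 9.39 in well 2. The May tips read 10.84 and 11.21 in well 1 and 11.17 and 11.41 in well 2. The other 14 neighbouring pairs differed by less than that spread.

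PTTPIN2 was highest where PTTPIN3 was lowest. Floral buds of unstated sex stood highest at 8.34 and 8.35, and male floral buds followed at 7.48 and 7.67. Vegetative buds ranged from 5.89 to 7.48 with a median of 6.99 over 10 isolations. Upper tips ranged from 3.78 to 7.10 with a median of 5.86, and basal tips from 4.41 to 6.30 with a median of 5.46. Buds and tips overlapped, but the 8 isolations of sex-unstated vegetative buds all lay at or above 6.56. F was 5.33 (adjusted p = 3.13e-04), and 1 of 18 neighbouring gaps exceeded the residual SD, that between the 2 floral bud groups (0.77).

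PTTPIN1 varied least, with group means spanning 1.85 units. Floral buds of unstated sex were highest at 7.42 and 7.60, followed by the May basal tips of age 5 at 7.31 and 7.54 and the May upper tips of age 6 at 7.60 and 7.12. The May basal tips of age 6 were lowest, at 6.23 and 5.09. High and low groups of PTTPIN1 occurred within the same organ, and none of its 18 neighbouring gaps exceeded the residual SD. F was 4.78 (adjusted p = 6.34e-04).

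**Figure D2:**
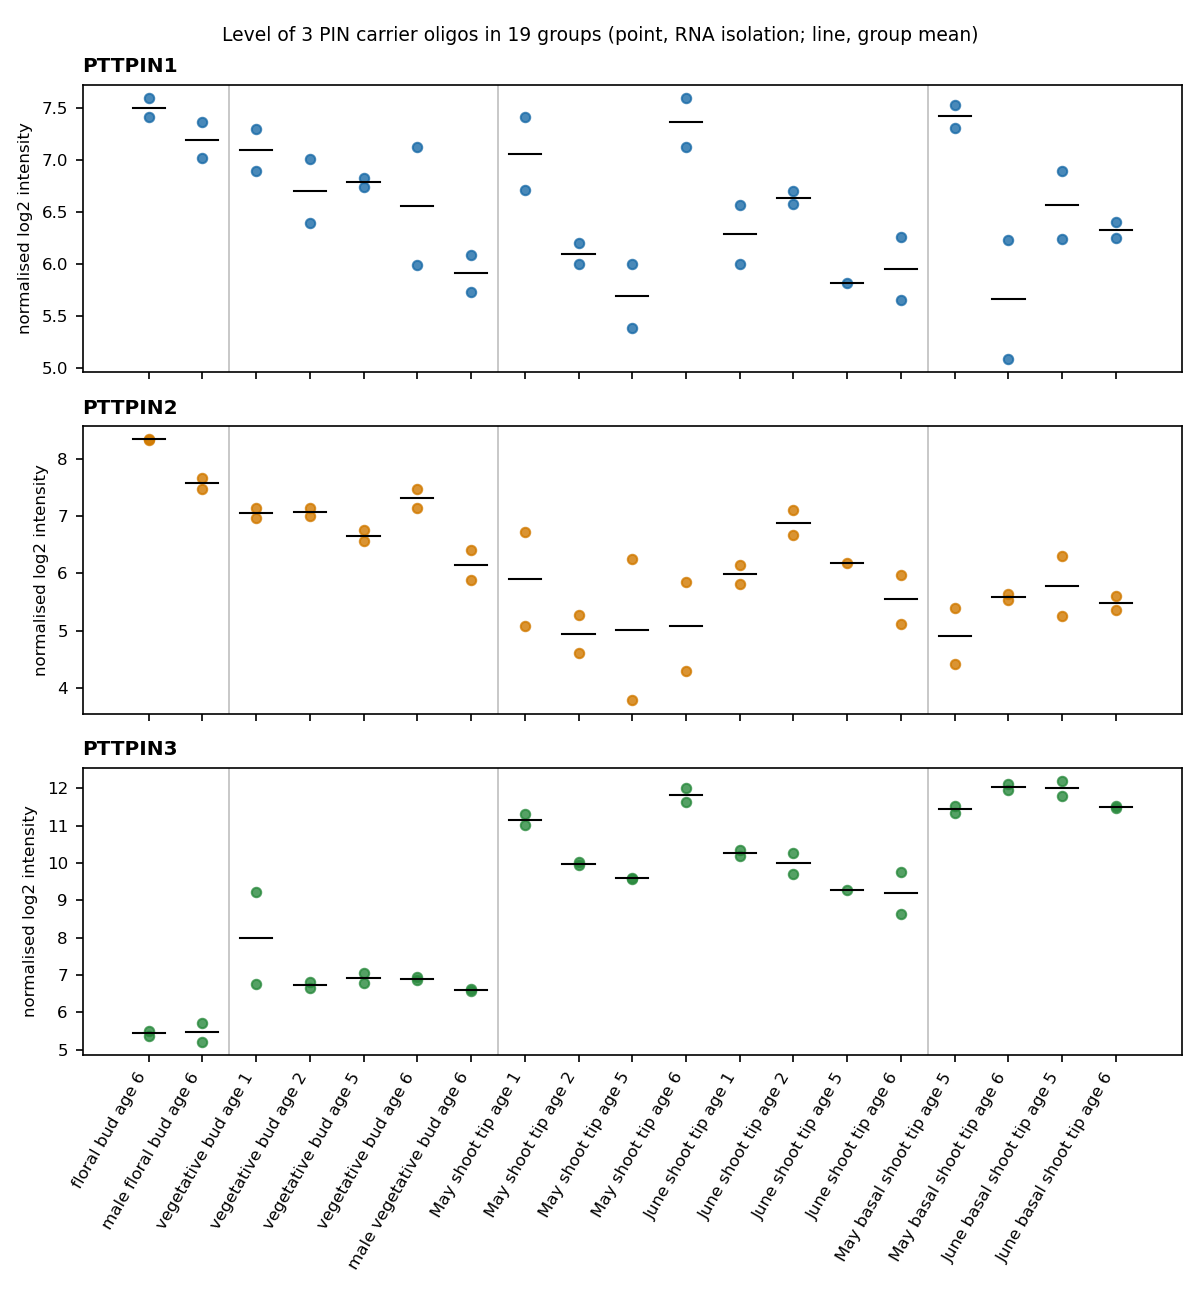
Normalised log2 intensity of each carrier in 19 groups, with a point for each RNA isolation, a line for the group mean, and grey lines dividing floral buds, vegetative buds, upper tips and basal tips. PTTPIN3 steps up from 5.20 in a male floral bud isolation to 12.20 in a June basal isolation, PTTPIN2 falls from buds to tips, and PTTPIN1 rises and falls within each organ.

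Floral buds of age 6 differed from vegetative buds of the same age in all 3 carriers, and not in the same direction. PTTPIN1 was higher in floral buds, at 7.35 against 6.23, by 1.12 ± 0.27 (SE, n = 4 and 4 isolations, adjusted p = 0.00266). Its vegetative levels were 7.13 and 5.99 in trees of unstated sex and 5.73 and 6.09 in male trees, so only the first of them reached the floral range. PTTPIN2 was higher by 1.22 ± 0.43, at 7.96 against 6.73 (adjusted p = 0.0348), and its sex-unstated vegetative isolation at 7.48 reached the lowest floral isolation. PTTPIN3 was lower, at 5.44 against 6.75, a difference of -1.31 ± 0.32 (adjusted p = 0.00341). Every floral isolation lay below every vegetative one, and the share of all oligos that separated so was not counted. The background, meaning the share of all 217 oligos that passed, was 29.5%, with 9.68% higher and 19.8% lower in floral buds. The PTTPIN2 call was held on removal of male vegetative isolation a and missed on removal of any of the other 7 isolations (adjusted p up to 0.110). It was also missed in a fit with a fixed term for the set (1.31, adjusted p = 0.0528) and in either well alone (1.31 and 1.15, adjusted p = 0.0714 and 0.0684).

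Both tree labels showed these directions. In trees of unstated sex the differences were 0.95 ± 0.38 for PTTPIN1, 1.03 ± 0.60 for PTTPIN2 and -1.47 ± 0.46 for PTTPIN3, of which PTTPIN3 was called (adjusted p = 0.0295, but 0.148 with a fixed term for the set and 0.0796 in well 2). In male trees they were 1.28 ± 0.38, 1.42 ± 0.60 and -1.15 ± 0.46, of which PTTPIN1 was called (adjusted p = 0.0199, but 0.118 and 0.0593 in wells 1 and 2). All 4 male isolations lay in set 1, so a fit within set 1 could not change the male differences. Its calls of PTTPIN2 and PTTPIN3 (adjusted p = 0.00736 and 0.0159) come from another estimate of error, over fewer isolations. In trees of unstated sex, vegetative isolation a, at 7.13 for PTTPIN1, lay in set 2. Against vegetative isolation b alone, the PTTPIN1 and PTTPIN2 differences within set 1 were 1.52 and 1.195. All 6 differences by tree label separated the isolations without overlap. With 2 against 2 isolations this can easily arise by chance, and the share of all oligos that separated so was not counted. The background of oligos called was 15.7% in trees of unstated sex and 19.8% in male trees (7.37% higher and 12.4% lower). The floral difference of male trees minus that of the others was 0.33, 0.39 and 0.32 for the 3 carriers, with adjusted p from 0.942 to 0.984, and limma called 0% of oligos (19 of 217 at an unadjusted p under 0.05). Each side had only 2 isolations, and the PTTPIN3 call fell away whichever of the 4 was removed (adjusted p up to 0.138), the PTTPIN1 call for 2 of the 4 (adjusted p up to 0.161).

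Male and sex-unstated trees of age 6 were also compared directly, and no carrier passed the test in either bud type. In vegetative buds PTTPIN2 was at 6.41 and 5.89 in male trees and at 7.48 and 7.15 in the others, a difference of -1.16 ± 0.60 (adjusted p = 0.255). PTTPIN1 differed by -0.65 ± 0.38 and PTTPIN3 by -0.30 ± 0.46 (adjusted p = 0.329 and 0.805). The background was 2.3% of oligos called. In floral buds the differences were -0.31, -0.77 and 0.03 for PTTPIN1, PTTPIN2 and PTTPIN3, with 95% intervals of -1.10 to 0.48, -2.02 to 0.48 and -0.93 to 0.98, and limma called 0% of oligos (25 of 217 at an unadjusted p under 0.05, and up to 13 adjusted calls with an isolation removed).

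Vegetative buds and upper tips were compared at matched ages. PTTPIN3 was lower in buds, with a difference of -3.50 ± 0.23 to May tips (n = 8 and 8, adjusted p = 1.57e-11) and of -2.55 ± 0.24 to June tips (n = 8 and 7, adjusted p = 5.71e-09). These are 11.3-fold and 5.84-fold lower signals. Every bud isolation lay below every May tip, a separation that was not counted over all oligos. In June only bud isolation a of age 1, at 9.23, reached the tip range, whose lowest level was 8.63. Without that isolation the differences were -3.81 and -2.86 (adjusted p = 2.69e-15 and 6.13e-13). Without the May upper tips of age 6 the May difference was -3.03 (adjusted p = 4.62e-09). The comparison with May tips had a background of 60.4%, 32.7% higher and 27.6% lower in buds, and that with June tips 67.7%, 40.1% higher and 27.6% lower. Both comparisons use the same buds.

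PTTPIN2 was higher in vegetative buds than in May tips by 1.80 ± 0.30, at 7.03 against 5.23 (adjusted p = 1.89e-05), and by 1.65 without the May upper tips of age 6 (adjusted p = 1.92e-04). The May levels were spread from 3.78 to 6.72, and the buds from 6.56 to 7.48. Against June tips the difference was 0.88 ± 0.32 (adjusted p = 0.0202), and all 8 bud isolations lay above the June mean of 6.15. The hybridisation set nearly coincides with organ here, and a fit with a fixed term for it gave a PTTPIN2 difference to May tips with a wider error (1.91 ± 1.25, adjusted p = 0.346). The PTTPIN3 difference to May tips was then -4.08 ± 1.01 (adjusted p = 0.0146).

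PTTPIN1 was higher in vegetative buds than in June tips by 0.61 ± 0.20 (adjusted p = 0.0113) and did not differ past the threshold from May tips (0.23 ± 0.19, 95% interval -0.16 to 0.63, adjusted p = 0.292). Leaving out the May upper tips of age 6 gave a May difference of 0.58, which passed (adjusted p = 0.0311). Its values also depended on the well. In well 1 the differences were -0.61 to May and 0.05 to June tips, and in well 2 the difference to May was 1.07 (adjusted p = 3.89e-04), so the direction against May tips turned with the well. The June calls of PTTPIN1 and PTTPIN2 were each missed in 1 of 15 fits with an isolation removed, that of PTTPIN1 without isolation b of June age 5 (0.49, adjusted p = 0.0545) and that of PTTPIN2 without isolation b of June age 6 (0.77, adjusted p = 0.05002). In well 2 alone PTTPIN2 was 0.59 higher than in June tips (adjusted p = 0.131).

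Basal and upper tips were compared at ages 5 and 6. PTTPIN3 was higher in basal tips, at 11.74 against 9.97, by 1.77 ± 0.24 (SE, n = 8 and 7, adjusted p = 2.03e-06), a 3.41-fold signal. All 8 basal isolations exceeded the mean of the upper tips. PTTPIN1 differed by 0.29 ± 0.20 (adjusted p = 0.261) and PTTPIN2 by -0.02 ± 0.32 (95% interval -0.68 to 0.65, adjusted p = 0.964). The background was 46.1% of oligos called, of which 29% higher and 17.1% lower in basal tips, and the median difference over all oligos was 0.12 under quantile normalisation and -0.02 in the values as deposited. The PTTPIN3 difference was 1.55 in a fit with a fixed term for the set (adjusted p = 0.0131). Within set 3 it was 2.52, from June age 5 basal isolation a at 11.80 against upper isolation b at 9.28. Within set 5 it was 1.75, from May age 5 basal isolation a at 11.34 against upper isolations at 9.57 and 9.60. Neither set could compare the tips of May age 6.

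The 4 pairs of month and age were not alike. For PTTPIN3 the basal minus upper difference was 1.85 ± 0.46 in May at age 5, 2.72 ± 0.56 in June at age 5 and 2.30 ± 0.46 in June at age 6, all called (adjusted p = 0.00267, 6.63e-04 and 3.13e-04). At May age 6 it was 0.21 ± 0.46 (adjusted p = 0.863), and the upper isolations, at 11.64 and 11.99, lay beside the basal ones at 11.95 and 12.10. The other upper isolations of these ages lay between 8.63 and 9.77.

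PTTPIN1 reversed between the pairs. In May at age 5 its basal tips were at 7.31 and 7.54 and its upper tips at 5.39 and 6.004, a difference of 1.73 ± 0.38 (adjusted p = 9.54e-04). In May at age 6 the basal tips were at 6.23 and 5.09 and the upper tips at 7.60 and 7.12, a difference of -1.71 ± 0.38 (adjusted p = 0.0107). The June differences were 0.75 ± 0.47 at age 5 and 0.37 ± 0.38 at age 6 and were not called. The call at May age 6 was missed without upper isolation a (-1.47, adjusted p = 0.133) and without basal isolation b (-1.13, adjusted p = 0.248). PTTPIN2 was not called in any of the 4 pairs, with differences from -0.41 to 0.51.

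**Figure D3:**
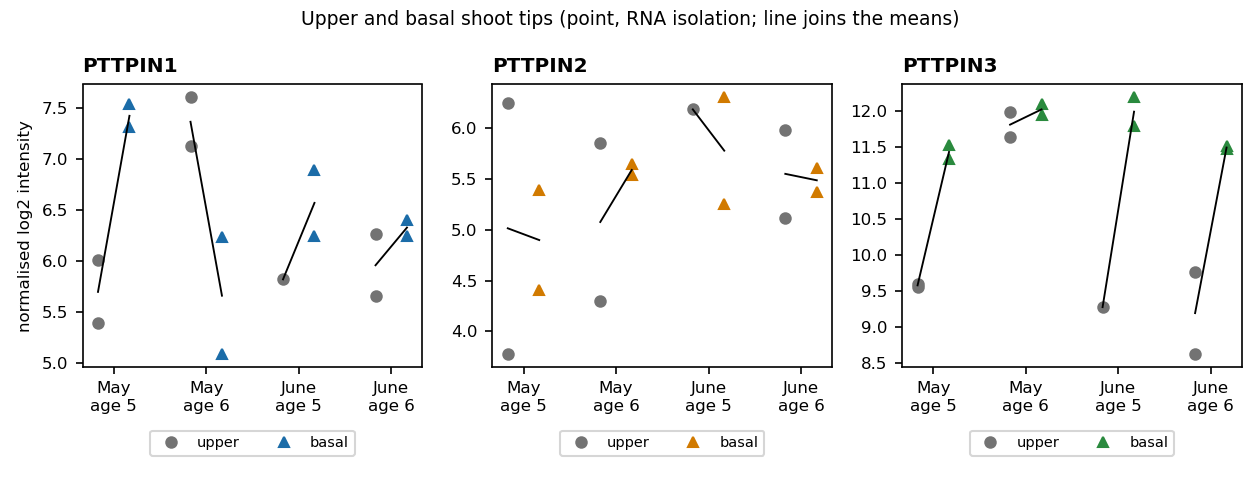
Normalised log2 intensity in upper (circles) and basal (triangles) shoot tips by month and age, with a point for each RNA isolation and a line joining the means. PTTPIN3 is higher in basal tips in 3 of the 4 pairs and level at May age 6, where the PTTPIN1 difference is -1.71.

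The background of oligos called was 33.6% in May at age 5, 25.3% in June at age 5, 39.6% in June at age 6 (24% higher and 15.7% lower) and 4.61% in May at age 6 (0.922% higher and 3.69% lower), so the last pair differed in the fewest oligos. The SD over oligos of the basal minus upper difference was 0.56 in that pair and 1.14 to 1.20 in the others. Set against the mean of the other 3 pairs, a contrast added after the levels were seen, the May age 6 difference stood at -2.65 ± 0.45 for PTTPIN1 and -2.08 ± 0.54 for PTTPIN3 (adjusted p = 1.16e-04 and 0.00636), at 30% of oligos called. For PTTPIN2 it was 0.71 ± 0.71 (adjusted p = 0.490). Whether the upper isolations of May age 6 carry the position their label gives was not tested.

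Without the May upper tips of age 6, the pooled basal difference was 2.29 ± 0.29 for PTTPIN3 (adjusted p = 7.63e-07) and 0.95 ± 0.24 for PTTPIN1, which then passed the test (adjusted p = 0.00220). The basal difference of PTTPIN3 was larger in June than in May by 1.48 ± 0.49 (adjusted p = 0.0307, background 24.4%), and by 0.66 ± 0.60 without those tips (adjusted p = 0.479). That call was also missed in 9 of 15 fits with an isolation removed (1.19 to 1.49, adjusted p up to 0.102), in the values as deposited (1.19, adjusted p = 0.0871), with centred arrays (1.06, adjusted p = 0.146), in well 1 (1.40, adjusted p = 0.0507) and with the set as a fixed or random term (adjusted p = 0.380 and 0.0711). For PTTPIN1 and PTTPIN2 the June and May differences were 0.55 ± 0.40 and -0.43 ± 0.64 apart (adjusted p = 0.343 and 0.628), and -1.17 and -0.12 apart without those tips (adjusted p = 0.116 and 0.927).

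Season was compared at matched ages. In upper tips PTTPIN3 was lower in June, at 9.68 against 10.63, a difference of -0.95 ± 0.24 (n = 7 and 8, adjusted p = 0.00414), and no June isolation exceeded the May mean. PTTPIN2 was higher in June, at 6.15 against 5.23, by 0.92 ± 0.32 (adjusted p = 0.0279). PTTPIN1 was at 6.18 in June and 6.56 in May, a difference of -0.38 ± 0.20 (adjusted p = 0.150). The background was 35.9% of oligos called, 17.1% higher and 18.9% lower in June. The PTTPIN2 call was missed in 8 of 15 fits with an isolation removed, namely May age 1 b, 2 a, 5 b and 6 a and June age 1 a, 2 a, 5 b and 6 a (0.61 to 0.88, adjusted p up to 0.0908), with a random block for the set (0.80, adjusted p = 0.158) and in well 1 alone (0.77, adjusted p = 0.198). The PTTPIN3 difference was -0.66 in well 1 alone (adjusted p = 0.0561).

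By age, the June minus May difference of PTTPIN3 was -0.90 ± 0.46 at age 1, 0.01 ± 0.46 at age 2, -0.30 ± 0.56 at age 5 and -2.62 ± 0.46 at age 6. Only the last was called (adjusted p = 1.24e-04, background 30.9%, 12% higher and 18.9% lower). PTTPIN1 was also lower in June at age 6, with a difference of -1.41 ± 0.38 (adjusted p = 0.00675, up to 0.0885 with an isolation removed), and was not called at other ages. At ages 1 and 5 the backgrounds were 11.1% (6.45% higher, 4.61% lower) and 5.99% (2.76% higher, 3.23% lower). PTTPIN2 was called at age 2, at 7.10 and 6.68 in June against 4.61 and 5.27 in May, a difference of 1.95 ± 0.60 (adjusted p = 0.0453, background 9.68%, of which 3.69% higher and 5.99% lower). That call fell away whichever of the 4 isolations was removed (adjusted p from 0.0778 to 0.2397). Without the May upper tips of age 6 the pooled PTTPIN3 difference was -0.40 ± 0.29 (adjusted p = 0.340), so its call rests on that group, whereas PTTPIN2 stayed at 1.07 ± 0.35 (adjusted p = 0.0378).

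In basal tips no carrier passed the test between the months. PTTPIN3 was at 11.75 in June and 11.73 in May (0.02 ± 0.32, 95% interval -0.66 to 0.69), PTTPIN1 differed by -0.09 ± 0.27 and PTTPIN2 by 0.39 ± 0.43 (adjusted p = 0.988, 0.861 and 0.562). The background was 27.6%, 13.8% in each direction.

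Age was addressed as ages 5 and 6 against ages 1 and 2 within each organ, and none of the 9 differences passed the test in limma, with 1 of 9 at an unadjusted p under 0.05 (PTTPIN3 in June tips). The backgrounds were 29.5% of oligos called in vegetative buds (15.2% higher and 14.3% lower), 6.45% in May tips (3.23% in each direction) and 7.83% in June tips (3.69% higher and 4.15% lower). In vegetative buds the differences were -0.23 ± 0.27 for PTTPIN1, -0.08 ± 0.43 for PTTPIN2 and -0.46 ± 0.32 for PTTPIN3 (adjusted p = 0.551, 0.907 and 0.318). The PTTPIN3 value rests on isolation a of age 1, at 9.23 in both wells (9.25 and 9.22), while isolation b was at 6.75 and the other 6 sex-unstated isolations lay between 6.66 and 7.05. Without isolation a the difference was 0.16 ± 0.21 (adjusted p = 0.639), and without isolation b it was -1.08 and called (adjusted p = 4.53e-04).

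In May tips the differences between old and young trees were -0.05, -0.37 and 0.13 for the 3 carriers, each less than its SE. They depended on which old group was included. Without the May upper tips of age 6 they were -0.88 for PTTPIN1 and -0.98 for PTTPIN3 (adjusted p = 0.0579 and 0.0870), and without age 5 they were 0.78 and 1.25 (adjusted p = 0.179 and 0.0972). At ages 1, 2, 5 and 6 PTTPIN3 averaged 11.16, 9.98, 9.58 and 11.82, and PTTPIN1 averaged 7.06, 6.10, 5.70 and 7.36. Both were low in the isolations of ages 2 and 5 and high in those of ages 1 and 6, with no overlap. This grouping of ages was seen in the levels, and the share of all oligos that split so was not counted. Over all oligos the May upper tips of age 6 correlated at 0.976 with those of age 1 and at 0.918 with those of age 5. The split may therefore not be particular to these carriers. From age 5 to age 6, a step chosen after the levels were seen, PTTPIN1 rose by 1.67 ± 0.38 and PTTPIN3 by 2.23 ± 0.46 (adjusted p = 0.00193 and 7.18e-04, background 26.7%), while PTTPIN2 differed by 0.06 ± 0.60. From age 1 to age 2 the differences were -0.96 ± 0.38 for PTTPIN1 and -1.18 ± 0.46 for PTTPIN3 (adjusted p = 0.0765 and 0.0739, background 20.3%).

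In June tips PTTPIN3 averaged 10.26, 9.99, 9.28 and 9.20 at ages 1, 2, 5 and 6, with isolations at 9.77 and 8.63 at age 6. The difference of old from young trees was -0.88 ± 0.36 (n = 3 and 4, adjusted p = 0.131), and in well 1 alone it was -1.37 (adjusted p = 0.0123). PTTPIN1 and PTTPIN2 differed by -0.58 ± 0.30 and -0.57 ± 0.48 (adjusted p = 0.257 and 0.499). An F test of unequal age differences in the 3 organs gave adjusted p = 0.5681, 0.803 and 0.274 for the 3 carriers, at 22.1% of oligos called. For PTTPIN3 the F of 2.23 became 8.22 without isolation a of the vegetative buds of age 1 and 10.88 without isolation b, both called (adjusted p = 0.0145 and 0.00436).

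In basal tips, where ages 5 and 6 were sampled, PTTPIN1 was lower at age 6, at 5.99 against 6.996, a difference of -1.003 ± 0.27 (n = 4 and 4, adjusted p = 0.0156, background 9.22%, of which 5.53% higher and 3.69% lower). In May it was at 7.31 and 7.54 at age 5 and at 6.23 and 5.09 at age 6, and in June at 6.89 and 6.25 against 6.25 and 6.41. The call was missed without May age 6 b, June age 5 a or June age 6 a (-0.96 to -0.72, adjusted p up to 0.143), in a fit with a fixed term for the set (-0.90, adjusted p = 0.108) and in either well alone (-1.06 and -0.94, adjusted p = 0.0995 and 0.0739). PTTPIN2 and PTTPIN3 differed by 0.20 ± 0.43 and 0.05 ± 0.32 (adjusted p = 0.815 and 0.953).

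**Figure D4:**
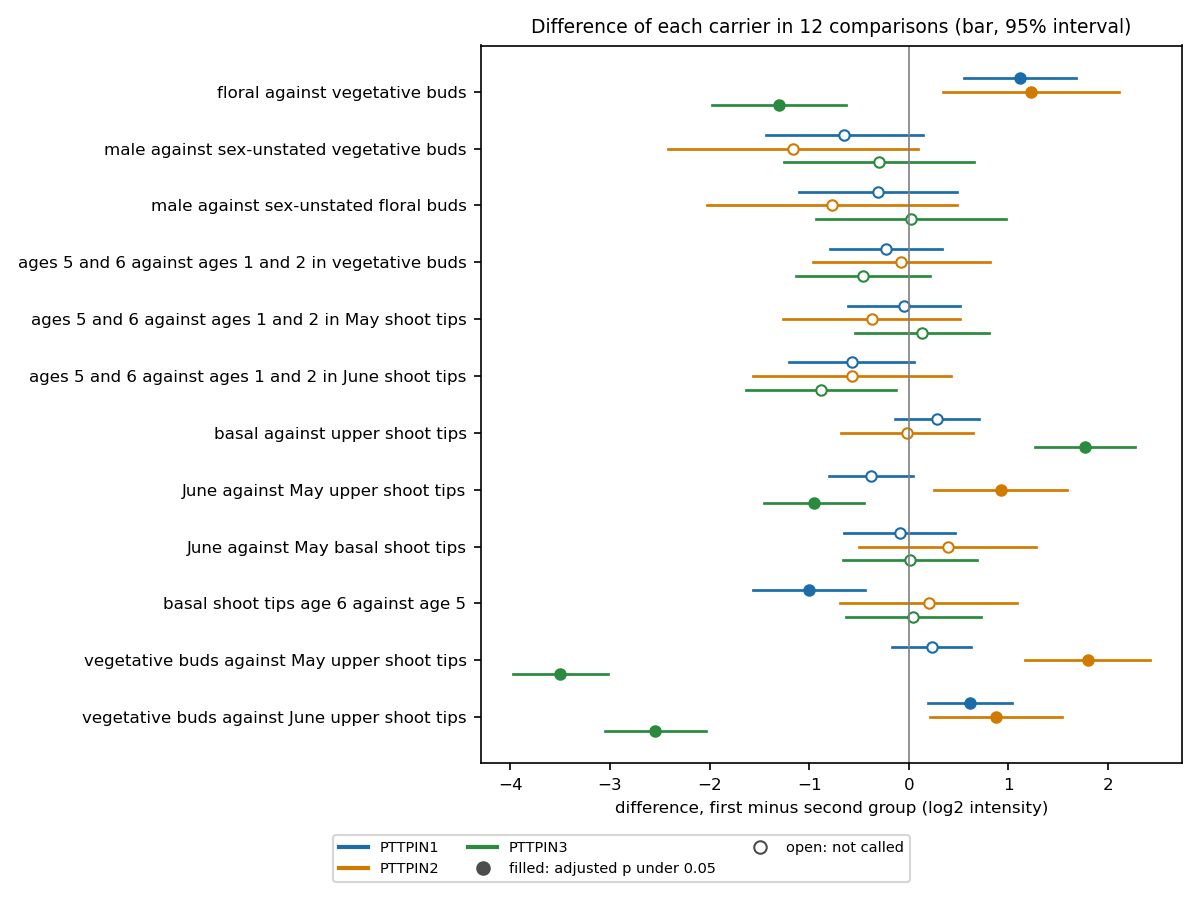
Differences of each carrier in 12 comparisons, as first minus second group in log2 intensity with 95% intervals from limma, filled where the adjusted p was under 0.05. PTTPIN3 lies at -3.50 and -2.55 in the bud against tip comparisons and at 1.77 in basal tips, and PTTPIN2 lies on the opposite side of 0 from PTTPIN3 in every comparison where both were called.

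The carriers were then set against each other. The change of one was subtracted from that of another in the same isolations, which removes what is constant to an oligo, and 36 such differences were tested, 12 for each of 3 pairs. Adjusted p-values come from the same subtraction over all other oligos, and 11 of the 36 passed. Every row of such a fit carries the scatter of the same reference carrier, so limma does not see independent oligos. Its p-values for these differences may be too small and its intervals too narrow. Permutation tests without this sharing are given below. The share of all oligos that differ from a reference carrier depends on how far the reference itself moved, and is given beside each set.

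Against PTTPIN3 the other carriers differed wherever the organ or the shoot position changed, as did 80.1% to 100% of all oligos. These calls therefore largely restate the change of PTTPIN3 itself. PTTPIN1 and PTTPIN2 exceeded it by 2.42 ± 0.43 and 2.53 ± 0.49 in floral against vegetative buds (adjusted p = 1.29e-05 and 4.65e-05), where 80.1% of oligos differed from PTTPIN3. In vegetative buds against May tips they exceeded it by 3.73 ± 0.31 and 5.29 ± 0.35 (adjusted p = 5.63e-17 and 1.48e-20), where 100% did, and against June tips by 3.16 ± 0.33 and 3.42 ± 0.37 (adjusted p = 4.78e-13 and 2.10e-12), where 95.4% did. In basal against upper tips they lay below it by -1.49 ± 0.33 and -1.79 ± 0.37 (adjusted p = 4.23e-05 and 1.82e-05), where 96.3% did. The PTTPIN1 minus PTTPIN3 call was missed with a fixed term for the set (-1.10, adjusted p = 0.0897). Within set 3 and within set 5, each with 1 basal isolation to compare, its value was -1.44 and -0.14, not called. The PTTPIN2 minus PTTPIN3 value within set 5 was -2.36, also not called. With the May upper tips of age 6 left out the pooled values were -1.34 for PTTPIN1 and -2.48 for PTTPIN2, both called. In June against May tips PTTPIN2 exceeded PTTPIN3 by 1.87 ± 0.37 (adjusted p = 5.43e-05, 70.4% of oligos), while PTTPIN1 exceeded it by 0.57 ± 0.33 (95% interval -0.08 to 1.22, adjusted p = 0.102), which passed with a random block for the set (0.62, adjusted p = 0.00579) and in well 2 (1.14, adjusted p = 0.00663).

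PTTPIN1 and PTTPIN2 differed from each other in 2 of 12 comparisons. PTTPIN1 lay below PTTPIN2 in June against May tips by -1.30 ± 0.40 (adjusted p = 0.00577, 56% of oligos unlike PTTPIN2) and in vegetative buds against May tips by -1.57 ± 0.38 (adjusted p = 4.94e-05, 88.4%). The first call was missed with a random block for the set (-1.23, adjusted p = 0.0613) and in a fit to the compared groups alone (adjusted p = 0.0890), and the second with a fixed term for the set (-1.11 ± 1.56). With the May upper tips of age 6 left out the 2 differences were -1.11 and -1.07, both called (adjusted p = 0.0317 and 0.0128), and PTTPIN2 minus PTTPIN3 in June against May tips was 1.47 (adjusted p = 0.0472). Their rise in floral buds differed by -0.11 ± 0.53, with a 95% interval of -1.15 to 0.93, which spans differences of nearly 1 unit in either direction (66.7% of oligos unlike PTTPIN2). In basal against upper tips they differed by 0.30 ± 0.40 (95% interval -0.48 to 1.09, 13.9%), and in vegetative buds against June tips by -0.26 ± 0.40 (95% interval -1.05 to 0.52, 46.3%). In basal tips of age 6 against age 5, PTTPIN1 stood at -1.20 ± 0.53 against PTTPIN2 and at -1.05 ± 0.43 against PTTPIN3. Neither passed (adjusted p = 0.995 and 0.751), and 0.463% and 0% of oligos differed from those references. The 95% intervals were -2.24 to -0.16 and -1.92 to -0.18, with unadjusted p = 0.0238 and 0.0188 in limma. That adjustment ran over the other oligos and not over the carrier differences. The exact permutation tests described below gave unadjusted p = 0.171 for both. In the comparisons by tree label, by age in upper tips and buds, and between months in basal tips none of the 3 pairs passed (adjusted p from 0.535 to 0.997).

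**Figure D5:**
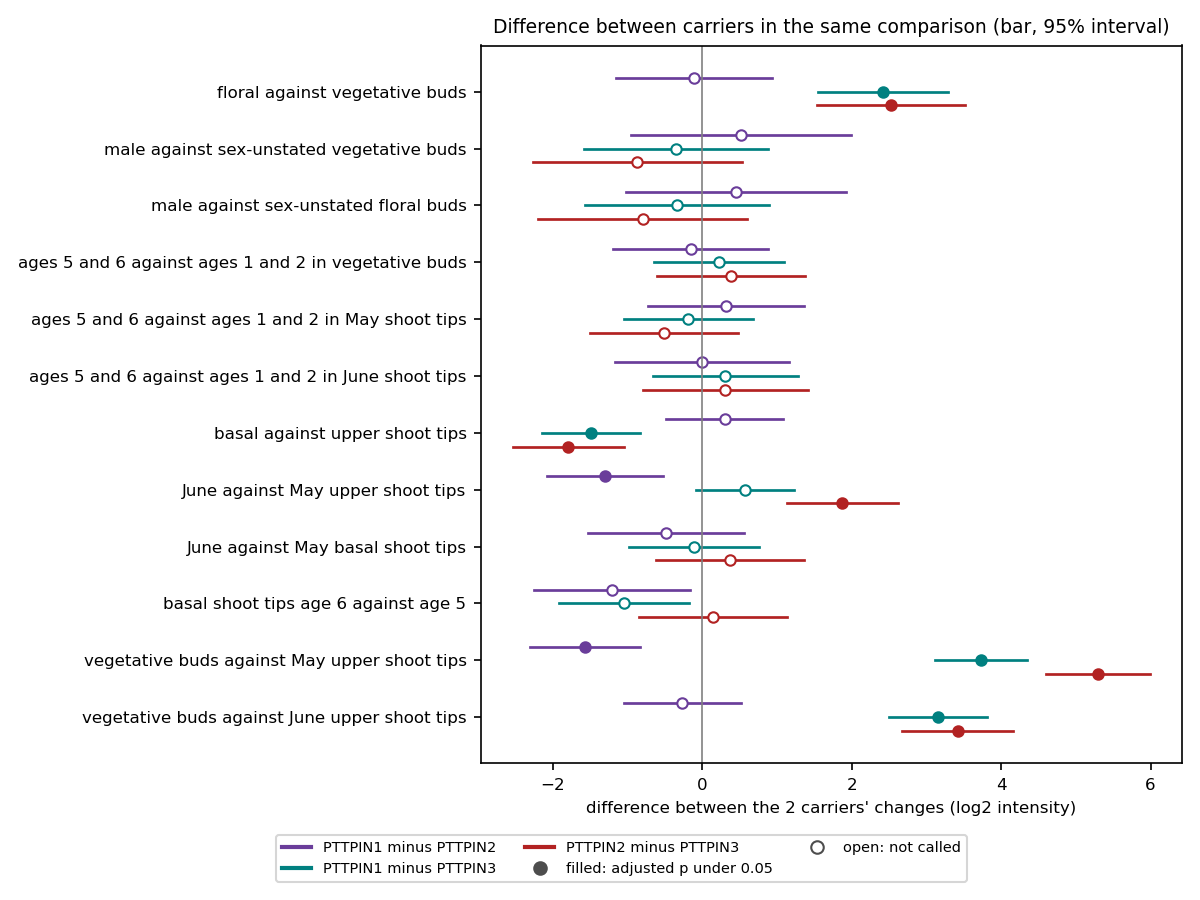
Differences between 2 carriers' changes in 12 comparisons, in log2 intensity with 95% intervals from limma, filled where the adjusted p was under 0.05. PTTPIN3 separates from both other carriers in floral buds (2.42 and 2.53) and between buds and tips, where 80.1% to 100% of all oligos differed from it. PTTPIN1 and PTTPIN2 separate from each other at -1.30 and -1.57 where May tips are the second group.

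Exact two-sided permutation tests over isolations were run on the 27 of these differences with at least 4 isolations a side. They regrouped isolations freely over age, month and tree label and compared unweighted means, so the matching of the limma contrasts was dropped. For PTTPIN2 minus PTTPIN3 in basal against upper tips the difference was -1.59 here and -1.79 in limma. With 4 against 4 the smallest p they allow is 0.0286, which both floral differences from PTTPIN3 reached, at 0.0771 after Benjamini-Hochberg adjustment over the 27. The 4 bud against tip differences from PTTPIN3 gave adjusted p = 0.00210, PTTPIN1 against PTTPIN3 in basal tips 0.0324, PTTPIN2 against PTTPIN3 in June against May tips 0.0324, and PTTPIN1 against PTTPIN2 in buds against May tips 0.0201. PTTPIN2 against PTTPIN3 in basal tips and PTTPIN1 against PTTPIN2 in June against May tips did not pass by permutation (adjusted p = 0.0858 and 0.0656).

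Other genes of the auxin pathway were few on the array. By name, PttIAA1, PttIAA2, PttIAA4, PttIAA5 and PttIAA6 belong to the Aux/IAA family, nuclear repressors of auxin-responsive transcription that are degraded when auxin is perceived. The sixth, PTIR1, was included only because its name holds the letters TIR1, and no role is given to it here. In floral against vegetative buds 1 of 6 rose, PttIAA1 by 0.81 ± 0.13, and 1 fell, PttIAA6 by 2.79 ± 0.24 (adjusted p = 3.01e-05 and 1.93e-09). Of all oligos 9.68% were higher and 19.8% lower there, and the list's median difference was 0.25 against -0.07 over all oligos.

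In basal against upper tips PttIAA2 and PttIAA6 rose with PTTPIN3, by 0.87 ± 0.15 and 0.84 ± 0.18, while PttIAA4 fell by 1.93 ± 0.24 (adjusted p = 2.71e-05, 4.07e-04 and 6.06e-07), where 29% of all oligos were higher and 17.1% lower, and the list median was 0.19 against 0.12 over all oligos. In June against May upper tips 3 of 6 fell and none rose, namely PttIAA1 by 0.86 ± 0.10, PttIAA2 by 0.52 ± 0.15 and PttIAA6 by 0.73 ± 0.18 (adjusted p = 1.33e-06, 0.00767 and 0.00264), where 18.9% of all oligos were lower, with a list median of -0.24 against -0.01. In June against May basal tips PttIAA1 fell by 0.94 ± 0.13 (adjusted p = 9.45e-06), 1 of 6 where 13.8% of all oligos were lower.

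In vegetative buds against May tips PttIAA2 was higher by 1.24 ± 0.14, as PTTPIN2 was, and PttIAA1, PttIAA4 and PttIAA5 were lower by -2.39 ± 0.09, -2.31 ± 0.23 and -0.88 ± 0.12, as PTTPIN3 was lower (largest adjusted p = 1.55e-06), where 32.7% of all oligos were higher and 27.6% lower. Against June tips the same 4 genes were called in the same directions, PttIAA6 joined those higher at 0.43 ± 0.18 (adjusted p = 0.0357, missed in 8 of 15 fits with an isolation removed), and the list medians were -0.59 in both, against 0.00 and 0.14 over all oligos. With age, the carriers' lack of a call in vegetative buds stood beside PttIAA1, lower in old trees by -1.20 ± 0.13, and PttIAA6, higher by 0.95 ± 0.24 (adjusted p = 3.06e-07 and 0.00317), where 14.3% of all oligos were lower and 15.2% higher. In basal tips of age 6 against age 5, PttIAA1 and PttIAA2 fell by 0.72 ± 0.13 and 0.80 ± 0.19 (adjusted p = 0.00151 and 0.00887, the latter missed in 2 of 8 fits with an isolation removed), in the same direction as PTTPIN1, where 3.69% of all oligos were lower. No member of the list was called between male and sex-unstated trees of a bud type, or between old and young trees in May or June tips. Between single ages in May tips PttIAA2 fell by 1.303 ± 0.27 from age 1 to age 2 and rose by 1.32 ± 0.27 from age 5 to age 6 (adjusted p = 0.00130 and 7.88e-04), the latter step with PTTPIN1 and PTTPIN3. PttIAA5 rose by 0.88 ± 0.24 in the first step and PttIAA4 fell by 1.298 ± 0.46 in the second (adjusted p = 0.0117 and 0.0386).

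Similarity of pattern was described by Pearson's r of group means over the 19 groups, which share arrays and the normalisation and fall into buds and tips, so a gap between these organs alone can raise it. For PTTPIN1 the most similar named oligo was PttIAA2, at r = 0.724 over all groups, 0.748 over the 7 bud groups and 0.754 over the 12 tip groups. PHYA and PTCO12 followed at 0.506 and 0.483, the clones A003P34U and M112C09 stood at 0.684 and 0.57, and PTB2 and F052P94Y were most opposite at -0.533 and -0.805. Among named oligos PTTPIN2 was most like PTAP1-1B, an APETALA1 homolog (r = 0.817), then PTAP1-2A and PTAG2 at 0.644 and 0.632. Over tips alone PTAP1-1B fell to 0.278 and PTAP1-2A to -0.619. Closer still were the clones F117P48Y and F068P73Y, at 0.897 and 0.895 over all groups, and R48C03 was most opposite at -0.844.

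Among named oligos PTTPIN3 was most like PttIAA1 at 0.845, PMFT at 0.797 and PttIAA5 at 0.680, and these became 0.387, -0.083 and -0.643 over tips alone. The clones V003A12 and UM67TE05 stood higher, at 0.897 and 0.891, and UM67TE05 kept 0.854 over buds and 0.675 over tips. PTAP1-1B and UM89TG10 were most opposite, at -0.844 and -0.911. Among the carriers, PTTPIN2 and PTTPIN3 were opposed over all groups (r = -0.797), and PTTPIN3 was the most opposite named oligo to PTTPIN2. PTTPIN1 followed PTTPIN2 over buds (0.857) and not over tips (-0.103), where it stood at 0.503 with PTTPIN3.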

How the data were processed

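The deposited table holds 1 value per oligo and array for 217 oligos on 74 one-colour Cy5 arrays. The deposited values ran from 1.10 to 16.25 and were read as log2 intensity from this range, since the sources used here do not give the log base, the background correction or how repeated spots were handled. Array medians spanned 0.735, so arrays were quantile-normalised. Wells were averaged per isolation, giving 37 isolations, 1 of them from a single well for PTTPIN2. A mean per group was fitted with limma 3.58.1 in R 4.3.3 (18 residual degrees of freedom), all tests are two-sided, with Benjamini-Hochberg adjustment of p over the 217 oligos. An adjusted p under 0.05 is a call. Fits were checked on simulated data. Isolation letters do not pair samples: deviations of same-lettered isolations correlated at a median of -0.0096 over 153 pairs of groups, and at over 0.1 in 34. The small number of arrays limits the precision.

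The carriers, the auxin list (8 Aux/IAA names, and IDs holding ARF, AUX1, LAX, TIR1, AFB, ABP1, GH3, PINOID, YUC or PGP, of which 6 were measured) and the comparisons were chosen with earlier results of these data known. Every carrier is named in every comparison, list members where they passed, and for similar patterns the 3 named oligos and 2 clones of highest r and the 1 of each kind of lowest r. No sequence or position came with the IDs. Alternatives were the values as deposited, median centring, wells as separate arrays, separate fits, filters on dim or incomplete oligos, the isolation letter or the hybridisation set as a term, and leaving out isolations. Single wells, the fits without the May upper tips of age 6 and the steps between single ages in May were added after the data were seen.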

Additional observations from a re-analysis of the deposited data

Results flagged for a closer look

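Among the 4 arrays of a group, 1 array lay far from the other 3 for PTTPIN1 in 5 groups. An array of floral buds of age 6 read 7.262 with the nearest other at 7.569, and an array of male floral buds read 7.624 with the nearest at 7.111. An array of June basal tips of age 5 read 5.442 with the nearest at 6.877, an array of June upper tips of age 1 read 5.49 with the nearest at 6.501, and an array of May basal tips of age 5 read 7.735 with the nearest at 7.335. For PTTPIN3, 1 of 10 vegetative bud isolations stood at 9.233 with the next at 7.051. These are 6 of 68 sets of arrays or isolations examined, and chance alone flags some such sets.

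The basal minus upper difference of PTTPIN3 was 1.475 larger in June than in May, a call missed in 9 of 15 fits with an isolation removed. Against the other 3 pairs of month and age, the May age 6 difference stood at -2.654 for PTTPIN1 and -2.077 for PTTPIN3. The part of the hybridisation set, the isolation or the label in these values was not tested.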

How the results depend on the processing

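Leaving aside fits with 1 isolation removed, 1351 values were recomputed under other settings. Of these 1175 kept their direction and side of the threshold, 72 lost a call, 34 gained one and 70 turned in sign, of which 1 had been called, PTTPIN1 in basal tips of age 6 against age 5 within set 2. The pooled PTTPIN3 differences between floral and vegetative buds, buds and tips, and basal and upper tips kept their calls under all settings run. The floral differences within a tree label did not. Within set 3 and within set 5 the basal comparison had only 1 basal isolation with an upper counterpart. The cause of the changes below was not tested. With a fixed set term, calls changed in floral against vegetative buds (PTTPIN2 1.31), basal against upper tips (PTTPIN1 minus PTTPIN3 -1.10), basal tips age 6 against age 5 (PTTPIN1 -0.90), buds against May upper tips (PTTPIN1 minus PTTPIN2 -1.11, PTTPIN2 1.91) and signs turned in floral against vegetative buds (PTTPIN1 minus PTTPIN2 0.092), old against young vegetative buds (PTTPIN1 0.055, PTTPIN2 0.0083), basal against upper tips (PTTPIN2 0.0073), basal against upper tips of May age 6 (PTTPIN2 -0.47), basal against upper tips of June age 5 (PTTPIN2 0.12), basal against upper tips of June age 6 (PTTPIN2 0.99), June against May upper tips of age 2 (PTTPIN3 -0.19), June against May upper tips of age 5 (PTTPIN1 -0.102), June against May upper tips of age 6 (PTTPIN2 -0.51), June against May basal tips (PTTPIN1 0.34, PTTPIN3 -0.33), basal tips age 6 against age 5 (PTTPIN3 -0.103), floral difference in male against sex-unstated trees (PTTPIN1 -0.24), June minus May basal difference (PTTPIN2 1.09), May age 6 against the other pairs (PTTPIN2 -0.63). Within set 1, signs turned in floral against vegetative buds (PTTPIN1 minus PTTPIN2 0.092), floral difference in male against sex-unstated trees (PTTPIN1 -0.24). In well 1, calls changed in floral against vegetative buds (PTTPIN2 1.305), old against young June tips (PTTPIN3 -1.37), June against May upper tips (PTTPIN2 0.77, PTTPIN3 -0.66), basal tips age 6 against age 5 (PTTPIN1 -1.06), buds against June upper tips (PTTPIN1 0.046) and signs turned in male against sex-unstated floral buds (PTTPIN3 -0.32), old against young vegetative buds (PTTPIN2 0.076), basal against upper tips (PTTPIN1 minus PTTPIN2 -0.55, PTTPIN1 -0.20, PTTPIN2 0.085), basal against upper tips of May age 5 (PTTPIN2 0.48), basal against upper tips of June age 5 (PTTPIN2 0.077), basal against upper tips of June age 6 (PTTPIN1 -0.59), June against May upper tips of age 1 (PTTPIN2 -0.031, PTTPIN3 0.27), June against May upper tips of age 2 (PTTPIN1 -0.35, PTTPIN3 -0.0094), June against May basal tips (PTTPIN3 -0.038), buds against May upper tips (PTTPIN1 -0.61), June minus May basal difference (PTTPIN1 -0.15), May age 6 against the other pairs (PTTPIN2 -0.103). In well 2, calls changed in floral against vegetative buds (PTTPIN2 1.15), basal against upper tips (PTTPIN1 0.77), basal tips age 6 against age 5 (PTTPIN1 -0.94), buds against May upper tips (PTTPIN1 1.07), buds against June upper tips (PTTPIN2 0.59) and signs turned in old against young May tips (PTTPIN1 0.25), basal against upper tips (PTTPIN2 0.11), basal against upper tips of May age 5 (PTTPIN2 0.22), basal against upper tips of June age 6 (PTTPIN2 0.093), June against May basal tips (PTTPIN1 0.61), buds against June upper tips (PTTPIN1 minus PTTPIN2 0.59). Within set 2, signs turned in old against young vegetative buds (PTTPIN1 0.055, PTTPIN2 0.0083), basal tips age 6 against age 5 (PTTPIN1 0.081, PTTPIN3 -0.70). With the values as deposited, signs turned in old against young vegetative buds (PTTPIN2 0.0050), old against young May tips (PTTPIN1 0.083), June against May upper tips of age 1 (PTTPIN2 -0.040), June against May upper tips of age 2 (PTTPIN3 -0.22), June against May upper tips of age 5 (PTTPIN1 -0.14), June against May basal tips (PTTPIN3 -0.34), May upper tips of age 6 against age 5 (PTTPIN2 -0.022). Without age 5, signs turned in old against young vegetative buds (PTTPIN2 0.25), old against young May tips (PTTPIN1 0.78), basal against upper tips (PTTPIN1 minus PTTPIN2 -0.89, PTTPIN1 -0.67, PTTPIN2 0.22). As a slope per year, signs turned in old against young vegetative buds (PTTPIN2 0.0021), old against young May tips (PTTPIN1 0.0088). With median-centred arrays, signs turned in old against young May tips (PTTPIN1 0.036), June against May upper tips of age 2 (PTTPIN3 -0.36), June against May upper tips of age 5 (PTTPIN1 -0.048), June against May basal tips (PTTPIN3 -0.48). Without the May upper tips of age 6, calls changed in basal against upper tips (PTTPIN1 0.95), June against May upper tips (PTTPIN3 -0.40), buds against May upper tips (PTTPIN1 0.58) and signs turned in old against young May tips (PTTPIN3 -0.98), June minus May basal difference (PTTPIN1 -1.17). Within set 3, calls changed in basal against upper tips (PTTPIN1 minus PTTPIN3 -1.44), basal tips age 6 against age 5 (PTTPIN1 -1.88) and signs turned in basal against upper tips (PTTPIN2 0.12), basal against upper tips of June age 5 (PTTPIN2 0.12). Within set 5, calls changed in basal against upper tips (PTTPIN1 minus PTTPIN3 -0.14, PTTPIN2 minus PTTPIN3 -2.36, PTTPIN1 1.61). With wells as separate arrays, signs turned in basal against upper tips (PTTPIN2 0.058), basal against upper tips of May age 5 (PTTPIN2 0.19). With a random set block, calls changed in June against May upper tips (PTTPIN1 minus PTTPIN2 -1.23, PTTPIN2 0.80) and signs turned in basal against upper tips of June age 6 (PTTPIN2 0.064), June against May basal tips (PTTPIN3 -0.0098). In a fit to the compared groups alone, calls changed in June against May upper tips (PTTPIN1 minus PTTPIN2 -1.30, PTTPIN2 0.92), basal tips age 6 against age 5 (PTTPIN1 -1.003). With complete oligos only, calls changed in buds against June upper tips (PTTPIN1 0.44).

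With 1 isolation left out, the value ranges were floral against vegetative buds (PTTPIN1 minus PTTPIN2 -0.33 to 0.11, PTTPIN2 1.09 to 1.35), male against sex-unstated floral buds (PTTPIN3 -0.23 to 0.28), old against young vegetative buds (PTTPIN1 -0.51 to 0.055, PTTPIN2 -0.16 to 0.0083, PTTPIN3 -1.08 to 0.16), old against young May tips (PTTPIN1 -0.23 to 0.12, PTTPIN2 -0.99 to 0.24), basal against upper tips (PTTPIN1 minus PTTPIN2 -0.082 to 0.69, PTTPIN2 -0.33 to 0.29), basal against upper tips of May age 5 (PTTPIN2 -1.35 to 1.12), basal against upper tips of May age 6 (PTTPIN2 -0.27 to 1.29), basal against upper tips of June age 5 (PTTPIN2 -0.93 to 0.12), basal against upper tips of June age 6 (PTTPIN2 -0.49 to 0.37), June against May upper tips (PTTPIN2 0.61 to 1.23), June against May upper tips of age 1 (PTTPIN2 -0.73 to 0.91), June against May upper tips of age 2 (PTTPIN3 -0.27 to 0.29), June against May upper tips of age 5 (PTTPIN1 -0.19 to 0.43, PTTPIN2 -0.067 to 2.40), June against May upper tips of age 6 (PTTPIN2 -0.31 to 1.25), June against May basal tips (PTTPIN1 -0.38 to 0.19, PTTPIN3 -0.085 to 0.11), basal tips age 6 against age 5 (PTTPIN1 -1.29 to -0.72, PTTPIN2 -0.063 to 0.46, PTTPIN3 -0.053 to 0.15), buds against June upper tips (PTTPIN1 0.47 to 0.75, PTTPIN2 0.77 to 1.01), May upper tips of age 6 against age 5 (PTTPIN2 -1.17 to 1.297), floral difference in male against sex-unstated trees (PTTPIN1 -0.24 to 0.90), June minus May basal difference (PTTPIN2 -1.05 to 0.19), May age 6 against the other pairs (PTTPIN2 -0.074 to 1.49), F of unequal age differences (PTTPIN3 1.42 to 10.88).

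The count of called oligos moved by over 1.5 times in these comparisons (main, then lowest and highest over settings): floral against vegetative buds 64, 39 and 69, male vegetative buds 5, 0 and 18, old against young May tips 14, 2 and 52, old against young June tips 17, 1 and 40, basal against upper tips 100, 64 and 107, June against May upper tips 78, 46 and 95, June against May basal tips 60, 11 and 74, basal age 6 against 5 20, 2 and 31, buds against May tips 131, 17 and 138, buds against June tips 147, 91 and 145. For male against sex-unstated floral buds the count of 0 reached 13 with an isolation left out. With the isolation letter as a replicate block, 124 of 124 values kept direction and call, and counts stood at 0.846 to 1.1 times the main ones, while the letters did not pair samples. Signal over background was not measured here, and by rank of intensity within an array PTTPIN2 in tips often lay near the dim end.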
